A study of Homo sapiens with 6 samples.

Results

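The HOX cluster genes are the homeobox genes of the HOXA, HOXB, HOXC and HOXD clusters together with long non-coding RNAs (lncRNAs) transcribed inside the clusters. Members were taken by name from the deposited expression table. The rule took each gene named HOXA, HOXB, HOXC or HOXD followed by a number alone, each gene whose name begins with HOX and contains -AS, and the lncRNAs HOTTIP and HOTAIRM1. A read-through gene that the rule also names, HOXA10-HOXA9, has 0 entries in the table. In all, 50 of the 35856 listed genes are members, of which 38 are protein-coding and 12 are lncRNAs. HOXA on chromosome 7 has 11 protein-coding members and 5 lncRNAs, HOXB on chromosome 17 has 9 and 3, HOXC on chromosome 12 has 9 and 3, and HOXD on chromosome 2 has 9 and 1. HOXB1 has no entry in the table, so the anterior end of HOXB is described from HOXB2 on.

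HOX proteins are homeodomain transcription factors that give regions along the head-to-tail axis of the embryo their identity. The genes of a cluster lie in the order of the body regions in which they act, so a low paralog number marks the anterior end of a cluster and a high one the posterior end. Cells usually keep a HOX pattern that follows their position of origin, Polycomb and trithorax complexes are known to hold the clusters silent or active, and HOXA13 and HOTTIP are known for raised levels in hepatocellular carcinoma.

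The study asked what changes when LINC00862, a lncRNA of the nucleus, is raised in HCCLM3, an established human hepatocellular carcinoma cell line. The control group is labelled NC (3 libraries), and the group labelled LINC00862 overexpressed that lncRNA (3 libraries). The paper calls the vector control Empty in other experiments and does not name the control of the sequenced samples. The name Empty is used here for the NC libraries, as an assumption. The paper's methods name pcDNA3.1 as the overexpression vector, and neither a time after transfection nor the selection of stable cells is stated for the sequenced samples. Polyadenylated RNA was sequenced in libraries that keep the strand of the RNA. LINC00862 itself had 11, 21 and 6 counts in Empty libraries 1, 2 and 3, and 145, 121 and 76 counts in LINC00862 libraries 1, 2 and 3, without overlap between the groups. Below, values are always listed in this order of libraries.

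The deposited table holds an estimated count and an FPKM (fragments scaled by transcript length and library depth) for each gene and library. Total counts per library lay between 58241123 and 59648337 in Empty and between 58781905 and 68229070 in LINC00862. Low values pile up at multiples of 4, with 8142 entries equal to 4 against 4619 equal to 3 and 2777 equal to 5, and whether 1 count is 1 fragment was not tested. Below, 4 counts are taken as 1 fragment, an assumption, and a floor of 12 counts in a library (3 such fragments) is used where a group has no counts. Floors and ratio intervals cover counting error only. Nothing in the sources states that the replicates came from separate cultures, so the p-values measure the spread between these samples and no more.

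Counts were compared by the quasi-likelihood test of edgeR, with p-values adjusted by Benjamini and Hochberg's procedure over the 20741 genes that passed the filter on low counts, and a gene is called when its adjusted p is under 0.05. Of the 50 members, 27 were tested, 12 rose and 10 fell in LINC00862, 5 were tested without a call, and 23 were not tested. Across all tested genes, 34.4% rose, 29.8% fell and 64.2% were called in either direction. Among the 27 tested members, 24 had FPKM values without overlap between the groups (13 with LINC00862 higher, 11 with Empty higher), against 71.1% of all tested genes. HOXB8 and HOXD1, not tested, were also apart. A gene that is low in 1 group passes the filter through the other, so these counts are a description and the values of the members follow. The median log2 fold change was 1.20 over the 27 tested members and 0.11 over all tested genes. The median of the members had no stable size or sign: it lay between 0.36 and 1.32 with 1 library left out, at 0.43 with each gene of at least 1 count, at 0.54 and 0.12 on the 2 FPKM scales, and at -0.29 over the 20 members tested with counts divided by 4 (chosen after seeing the data). Scaling shifted the median of all genes to 0.16 with DESeq2 size factors, 0.32 by upper quartiles and -0.05 by library size alone, and the 22 called members kept their sign and their call under each of these scalings.

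The direction differed by cluster. In HOXA, 8 members rose and 2 fell among 11 tested, in HOXB 1 rose and 8 fell among 9 tested, in HOXC 3 rose and 0 fell among 7 tested, and in HOXD 0 of 10 members passed the filter. The shares called were 90.9%, 100% and 42.9% of the tested members, against 64.2% of all tested genes. With genes at 0 in Empty placed at their lower bound, the median log2 fold change of the tested members was 1.45 in HOXA, -4.26 in HOXB and 1.48 in HOXC. Counts of 12 or more were found for 20, 20 and 19 members in the Empty libraries and for 21, 23 and 23 in the LINC00862 libraries. The number of members measured was thus alike while their identity differed in part. HOXA10, HOXA11, HOXB6, HOXB7, HOXB9, HOXC6, HOXC9 and HOXC13 reached 12 counts in all 6 libraries. Another 5 members reached 12 counts in every Empty library and in 0 LINC00862 libraries, and 7 members did the reverse. The like share over all genes was not computed, so these counts describe the members alone. A further 16 members stayed under 12 counts in each of the 6 libraries, and 13 were listed at 0 in each Empty library against 3 in each LINC00862 library. Over the whole table the Empty libraries also had fewer genes above 0 (23791 to 24850) than the LINC00862 libraries (27464 to 28070), so more zeros in Empty are not particular to the HOX genes. In bulk RNA, fewer cells of a kind and less RNA per cell cannot be told apart.

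**Figure D1:**
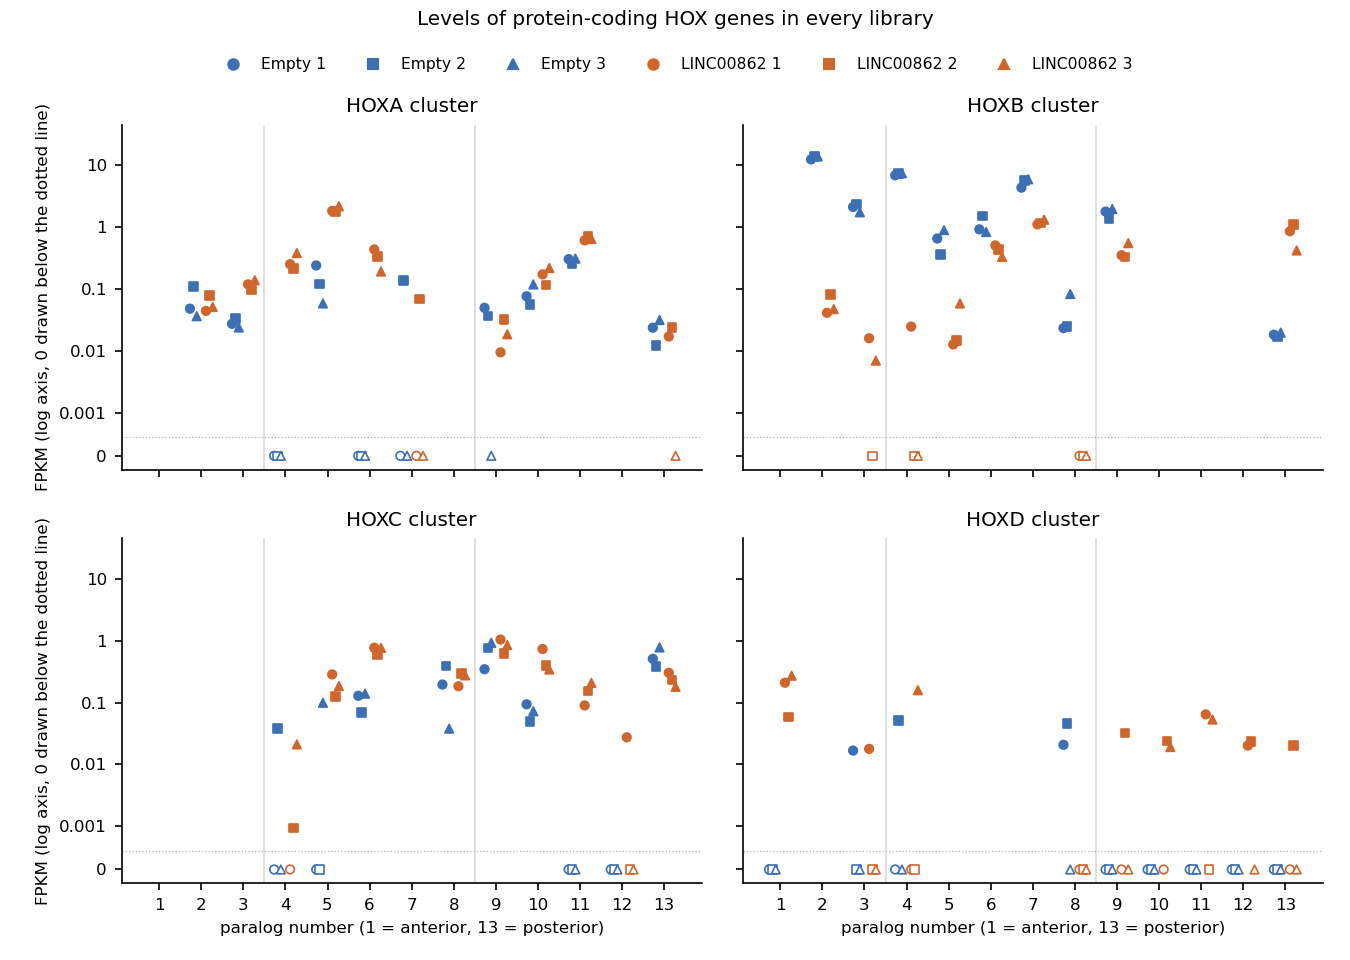
FPKM (log axis, with 0 drawn below a dotted line) of protein-coding HOX genes by paralog number, 1 panel per cluster and 1 point per library, Empty in blue and LINC00862 in orange. HOXB2 to HOXB5 sit high in the 3 Empty libraries and near 0 in LINC00862, while HOXA4 and HOXA6 are at 0 in Empty and HOXA5 reaches a mean FPKM of 1.93 in LINC00862.

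HOXB held the most abundant HOX transcripts of the Empty cells, and its anterior end had almost none in LINC00862. HOXB2 (ENSG00000173917), which acts in hindbrain patterning, had 1921, 2109 and 2169 counts in Empty and 8, 13 and 8 in LINC00862. Each Empty library was far above each LINC00862 library. Mean FPKM was 13.4 ± 0.839 (SD, n = 3) in Empty and 0.0567 ± 0.0220 in LINC00862, a log2 fold change of -7.63 (standard error 0.27, adjusted p = 8.42e-08, edgeR). Among the tested genes, 85.4% had a lower mean FPKM than HOXB2 in Empty and 6.80% in LINC00862, so a gene of the upper range became one of the lowest.

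HOXB4 (ENSG00000182742), known for expanding blood stem cells, had 910, 963 and 990 counts in Empty and 4, 0 and 0 in LINC00862. The groups did not overlap, and the LINC00862 libraries held 4 counts between them. Mean FPKM was 7.21 ± 0.304 in Empty and 0.00819 ± 0.0142 in LINC00862. The ratio of fragments, Empty over LINC00862, was 752 with a 95% counting interval from 134 to 29725. The fitted log2 fold change came to -9.28 (standard error 0.60, adjusted p = 1.98e-06, edgeR). Without LINC00862 library 1, the library with the 4 counts, the fit gave -12.84. The LINC00862 group then held 0 counts, so this value is not a measured fold. HOXB3, whose gene model spans HOXB4 on the same strand, had 1048, 1151 and 864 counts in Empty against 10, 0 and 4, and its log2 fold change of -7.66 became -8.73 without LINC00862 library 1. Reads in the 2844 bases that both genes cover cannot be assigned to either with certainty from the deposited values.

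The lncRNA HOXB-AS1 (ENSG00000230148) lies on the opposite strand between HOXB2 and HOXB3 and overlaps both. It had 114, 173 and 211 counts in Empty and 0, 6 and 0 in LINC00862. Empty was higher in each library, with a mean FPKM of 1.59 ± 0.465 against 0.0161 ± 0.0278, and the fragment ratio was 65.1 (95% counting interval 17.6 to 543). Its fitted log2 fold change came to -6.21 (standard error 0.91, adjusted p = 0.000312, edgeR), -5.60 without LINC00862 library 1 and -10.36 without LINC00862 library 2. With library 2 left out the LINC00862 group held 0 counts, so -10.36 is not a measured fold. Since HOXB-AS1 fell together with its neighbours, the 250 bases before its RefSeq start (GRCh38.p14, plus strand, chr17:48544101-48544350) are given here. GENCODE places this window in introns of HOXB2 and HOXB-AS1. The deposited gene model of HOXB-AS1 begins at 48543551, before this window. The window holds 0 matches to the motifs spelled out with the HOXA promoters, hence it has no capitals.
HOXB-AS1: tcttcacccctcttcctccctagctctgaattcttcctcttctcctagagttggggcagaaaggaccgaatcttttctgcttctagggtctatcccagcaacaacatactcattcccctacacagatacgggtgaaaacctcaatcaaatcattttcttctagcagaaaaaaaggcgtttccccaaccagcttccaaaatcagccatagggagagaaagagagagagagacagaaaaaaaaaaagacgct

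HOXB5 had 89, 48 and 122 counts in Empty and 2, 2 and 8 in LINC00862, with a fragment ratio of 22.7 (95% counting interval 7.45 to 113). Its log2 fold change of -4.26 became -5.32 without LINC00862 library 3, and the groups did not overlap. Summed over HOXB2, HOXB3, HOXB4 and HOXB5, FPKM was 22.0, 23.9 and 23.9 in Empty and 0.0942, 0.0965 and 0.112 in LINC00862. The sum was 231 times higher in Empty, and the exact two-sided permutation test gave p = 0.1, the smallest that 3 libraries against 3 allow.

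From HOXB6 to HOXB9 the level fell by less. HOXB7 (ENSG00000260027), known for driving proliferation when overexpressed in tumours, had 437, 564 and 600 counts in Empty and 129, 117 and 134 in LINC00862. The groups were apart, and transcripts were well above the floor in both. Its mean FPKM was 5.31 ± 0.849 in Empty and 1.19 ± 0.107 in LINC00862 (log2 fold change -1.98, standard error 0.27, adjusted p = 0.000185, edgeR). HOXB9 had 305, 230 and 338 counts in Empty and 70, 57 and 96 in LINC00862, and its mean FPKM fell from 1.70 ± 0.304 to 0.409 ± 0.122. Its log2 fold change came to -1.85 (standard error 0.34, adjusted p = 0.00122, edgeR). HOXB6 had 159, 256 and 145 counts in Empty and 101, 75 and 58 in LINC00862, which did not overlap but lay closer. The mean FPKM of HOXB6 was 1.08 ± 0.362 in Empty and 0.422 ± 0.0879 in LINC00862, with a log2 fold change of -1.19 (standard error 0.35, adjusted p = 0.0152, edgeR). The HOXB6 call was lost without Empty library 2 (-0.86) and without LINC00862 library 3 (-1.08).

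HOXB8, inside the gene model of HOXB7, had 4, 4 and 14 counts in Empty and 0 in each LINC00862 library and was not tested. The HOXB7 model also spans HOXB9. Over HOXB6, HOXB7, HOXB8 and HOXB9 the summed FPKM was 7.06, 8.56 and 8.78 in Empty and 1.96, 1.92 and 2.19 in LINC00862, a ratio of 4.02 of Empty over LINC00862. The anterior genes of the cluster were thus lower by a larger factor than the next ones along the chromosome. The difference between these factors was not tested.

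At the posterior end the sign turned. HOXB13, a posterior gene best known from the prostate, had 4, 4 and 4 counts in Empty and 199, 221 and 86 in LINC00862. Each LINC00862 library was above each Empty library. Mean FPKM was 0.0181 ± 0.00146 in Empty and 0.791 ± 0.345 in LINC00862, and the fragment ratio, LINC00862 over Empty, was 40.0 (95% counting interval 13.4 to 197). The fitted log2 fold change came to 5.42 (adjusted p = 1.81e-05, edgeR). HOXB-AS2 (12 counts in Empty library 1 and 0 elsewhere) and HOXB-AS3 (2 counts in Empty library 1, 1 in LINC00862 library 3) were not tested.

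**Figure D2:**
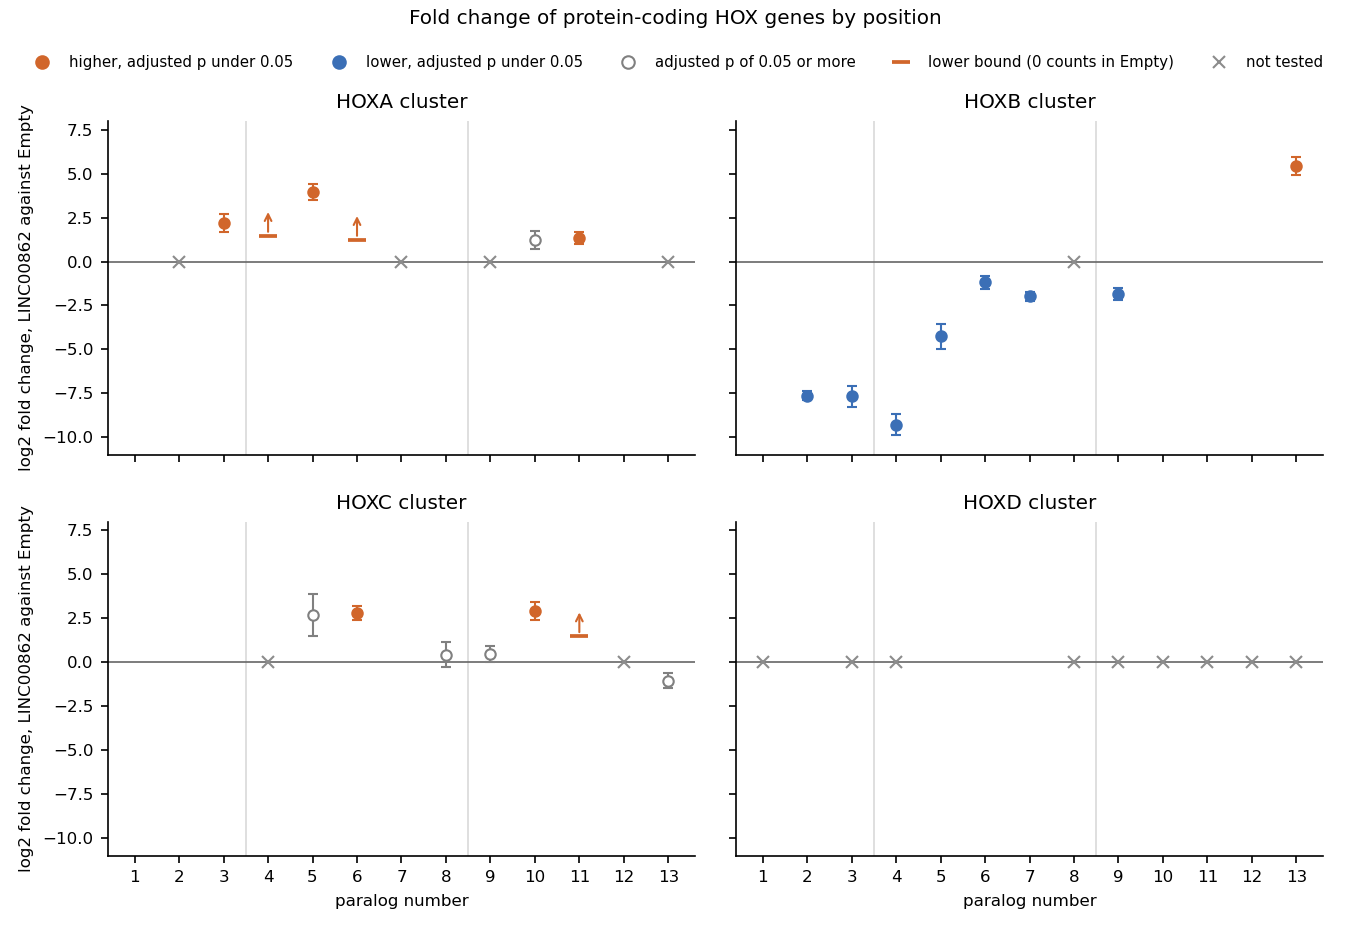
Log2 fold change of LINC00862 against Empty (points, with the standard error as bars) for tested protein-coding HOX genes by paralog number and cluster. Bars with arrows are lower bounds where Empty is at 0, and crosses are genes not tested; HOXB4 has the lowest value of HOXB (-9.28) and HOXB13 the highest (5.42).

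In HOXA a lncRNA had the largest drop. HOTAIRM1 (ENSG00000233429), known from myeloid differentiation, had 309, 342 and 436 counts in Empty and 6, 0 and 3 in LINC00862. The groups were far apart, with a mean FPKM of 3.63 ± 0.653 in Empty and 0.0224 ± 0.0216 in LINC00862. The fragment ratio was 143 (95% counting interval 39.1 to 1185), and the fitted log2 fold change came to -6.79 (standard error 0.64, adjusted p = 1.99e-05, edgeR), or -7.63 without LINC00862 library 1.

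From HOXA3 to HOXA6 the members were higher in LINC00862. HOXA5 (ENSG00000106004), known for lung development, had 28, 14 and 7 counts in Empty and 241, 204 and 251 in LINC00862. Every LINC00862 library was above every Empty library. HOXA5 had a mean FPKM of 0.139 ± 0.0919 in Empty and 1.93 ± 0.209 in LINC00862 (log2 fold change 3.95, standard error 0.47, adjusted p = 9.02e-05, edgeR), the highest mean of the protein-coding members in LINC00862.

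Its neighbours were at 0 in Empty. HOXA4 (ENSG00000197576) had 0 counts in each Empty library and 34, 25 and 44 in LINC00862, at least 2.74-fold higher (mean FPKM 0.281 ± 0.0872, adjusted p = 0.000460, edgeR). HOXA6 (ENSG00000106006) had 0 in each Empty library and 44, 29 and 17 in LINC00862, at least 2.34-fold higher (mean FPKM 0.321 ± 0.123, adjusted p = 0.000630). The lncRNA HOXA-AS3 (ENSG00000254369), on the opposite strand across HOXA4, HOXA5 and HOXA6, had 0 in each Empty library and 46, 48 and 39 in LINC00862, at least 3.53-fold higher (mean FPKM 0.104 ± 0.0140, adjusted p = 0.000199). In these genes each LINC00862 library held counts above the floor. HOXA3 had 8, 10 and 7 counts in Empty and 39, 28 and 42 in LINC00862 (log2 fold change 2.21, adjusted p = 0.00468), and HOXA-AS2, on its opposite strand, had 2, 0 and 8 against 62, 45 and 40. The fragment ratio of HOXA-AS2 was 17.6 (95% counting interval 4.55 to 151), and its log2 fold change of 3.90 became 5.57 without Empty library 3. Since low counts pile up at multiples of 4, the test was also run on counts divided by 4, a choice made after seeing the data, and HOXA3, HOXA4 and HOXA6 then had too few counts to be tested.

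Promoter sequences show the bases before the RefSeq starts of members that rose side by side. For HOXA6 and HOXA-AS3 these starts lie inside the deposited gene models, which begin at 27150603 (minus strand) and 27129977 (plus strand). RefSeq (GRCh38.p14) gives 34 promoter windows for 27 of the 50 members (HOXB2, HOXB4, HOXA5 and HOXC6 have no entry), and the 250 bases before the start are printed for HOXA6 and HOXA-AS3, which share their call and their 0 in Empty, and for HOXA11, described next. Capitals mark a match to a searched motif on either strand: the TATA box TATAAA, the CCAAT box, AGGTCA (a retinoic acid receptor half-site) or TGATNNAT (a PBX-HOX site). HOXA6 lies on the minus strand (chr7:27147775-27148024), in introns of HOXA6, HOXA3 and HOXA-AS3 by GENCODE, and has a CCAAT match read on the other strand. HOXA-AS3 lies on the plus strand (chr7:27146913-27147162), in introns of HOXA-AS3, HOXA3 and HOXA6, with a CCAAT and a TGATNNAT match, both read on the other strand. HOXA11 lies on the minus strand (chr7:27185233-27185482), in an exon of HOXA11-AS, with no match.
HOXA6: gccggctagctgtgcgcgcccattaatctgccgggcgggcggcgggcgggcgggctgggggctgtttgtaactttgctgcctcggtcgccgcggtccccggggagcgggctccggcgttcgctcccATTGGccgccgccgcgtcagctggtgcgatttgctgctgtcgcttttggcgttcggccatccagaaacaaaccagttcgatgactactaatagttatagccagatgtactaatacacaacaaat
HOXA-AS3: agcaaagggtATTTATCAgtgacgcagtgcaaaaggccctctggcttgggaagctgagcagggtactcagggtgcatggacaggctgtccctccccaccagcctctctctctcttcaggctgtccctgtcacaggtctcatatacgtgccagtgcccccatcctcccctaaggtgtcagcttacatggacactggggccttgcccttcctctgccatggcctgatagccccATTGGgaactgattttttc
HOXA11: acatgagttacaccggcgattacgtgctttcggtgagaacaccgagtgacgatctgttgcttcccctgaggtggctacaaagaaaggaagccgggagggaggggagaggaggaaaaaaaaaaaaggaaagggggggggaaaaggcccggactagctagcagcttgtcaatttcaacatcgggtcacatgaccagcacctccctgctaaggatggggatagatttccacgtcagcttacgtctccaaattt
Over the 34 HOX windows, CCAAT was present in 21, TATAAA in 5, TGATNNAT in 3 and AGGTCA in 0. These windows are not all separate sequences: HOXC4 and HOXC5 share 1 window, which has CCAAT and is counted for each of them, 7 windows belong to HOXA3, and those of HOXA11 and HOXA11-AS and of HOXA13 and HOTTIP overlap on opposite strands. Over all 35116 windows of the same length, the shares were 32.0%, 10.7%, 6.47% and 12.1%. The median number of CpG dinucleotides was 15 in the HOX windows and 11 in all windows. A match is a description of the letters and says nothing of binding.

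The posterior part of HOXA held 2 members that rose as a pair on opposite strands. HOXA11 (ENSG00000005073), needed for limb and uterus development, had 54, 45 and 55 counts in Empty and 124, 124 and 115 in LINC00862. The groups did not overlap and varied little inside themselves, with a mean FPKM of 0.289 ± 0.0288 in Empty and 0.650 ± 0.0473 in LINC00862 (log2 fold change 1.34, standard error 0.32, adjusted p = 0.00499, edgeR). HOXA11-AS, whose start lies 725 bases inside HOXA11 on the other strand, had 5, 27 and 12 counts in Empty and 110, 110 and 110 in LINC00862. Its log2 fold change came to 2.97 (adjusted p = 0.00189, edgeR) and 3.78 without Empty library 2. HOXA11 and HOXA11-AS share 726 bases, and whether the counting used the strand is not stated, so their separate levels are uncertain.

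HOXA10 had 19, 14 and 30 counts in Empty and 50, 30 and 55 in LINC00862. The groups touched at 30 counts, and the test gave no call (log2 fold change 1.20, adjusted p = 0.0662, edgeR). HOXA2, HOXA7, HOXA9, HOXA13 and HOTTIP were not tested. Mean FPKM of HOXA2 was 0.0641 in Empty and 0.0575 in LINC00862, and HOTTIP was listed at 0 except in LINC00862 library 3 (0.0168 FPKM). HOXA13, next to HOTTIP, had a mean FPKM of 0.0223 in Empty and 0.0136 in LINC00862, too low for a comparison at this depth.

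HOXC held members of both patterns, those higher in LINC00862 and those at a like level in both groups. HOXC6 (ENSG00000197757), known from mammary gland development and raised in several carcinomas, had 30, 16 and 33 counts in Empty and 205, 136 and 178 in LINC00862. Each LINC00862 library was above each Empty library. Its mean FPKM was 0.112 ± 0.0381 in Empty and 0.709 ± 0.102 in LINC00862 (log2 fold change 2.81, standard error 0.39, adjusted p = 0.000220, edgeR). HOXC10, a gene of lumbar segments, had 15, 8 and 12 counts in Empty and 135, 64 and 55 in LINC00862, again without overlap (log2 fold change 2.91, adjusted p = 0.000695). HOXC11 (ENSG00000123388) had 0 in each Empty library and 23, 34 and 46 in LINC00862, at least 2.78-fold higher (mean FPKM 0.151 ± 0.0592, adjusted p = 0.000568). With counts divided by 4, HOXC11 was not tested.

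HOXC9 (ENSG00000180806), a gene of thoracic segments, had the highest mean FPKM of the cluster over the 6 libraries. Its counts were 39, 84 and 103 in Empty and 134, 69 and 96 in LINC00862. The groups overlapped, with a mean FPKM of 0.678 ± 0.299 in Empty and 0.838 ± 0.213 in LINC00862 (log2 fold change 0.46, standard error 0.46, adjusted p = 0.399, edgeR). HOXC13, a gene of hair and nail, was the tested HOXC member with a negative value: 80, 60 and 123 counts in Empty and 55, 37 and 29 in LINC00862. Its groups did not overlap, and the test gave no call (log2 fold change -1.05, adjusted p = 0.0528). A call was made for HOXC13 with library size alone (-1.20), on the FPKM with limma, with counts divided by 4 and without Empty library 2 (-1.25).

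HOXC8 had overlapping groups (log2 fold change 0.44, adjusted p = 0.602, edgeR). Its value was 1.29 without Empty library 2 and -0.03 without Empty library 3. HOXC5 had a log2 fold change of 2.71 without a call (adjusted p = 0.0738) and 7.74 with a call without Empty library 3, the sole Empty library that held counts of it. Since Empty then held no counts, 7.74 is not a measured fold. The gene model of HOXC6 spans HOXC8 and HOXC9 and shares 13893 bases with HOXC4, all on the same strand. HOXC-AS1, the lncRNA of the cluster with the highest mean FPKM, was not tested, with 0.0891, 0.101 and 0.258 FPKM in Empty and 0.0837, 0.103 and 0.231 in LINC00862. HOXC4, HOXC12, HOXC13-AS and HOXC-AS2 were also not tested.

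Most HOXD members were close to silent in all 6 libraries, with HOXD1 the main exception in LINC00862. Of the 10 members of the cluster, 8 stayed under 12 counts in every library. HOXD1 (ENSG00000128645), the anterior gene of the cluster, had 0 counts in each Empty library and 31, 8 and 35 in LINC00862. Its mean FPKM in LINC00862 was 0.180 ± 0.110, LINC00862 library 2 was under the floor, and the gene did not pass the filter. HOXD4 (ENSG00000170166) had FPKM values of 0, 0.0516 and 0 in Empty and 0, 0 and 0.158 in LINC00862. HOXD-AS2 was listed at 0 except in LINC00862 library 3 (0.0221 FPKM). With each gene of at least 1 count kept in the test, HOXD1 was called as higher in LINC00862, and so it was where leaving out Empty library 1, 2 or 3 or LINC00862 library 2 let it pass the filter.

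The HOXD cluster also holds lncRNAs that the naming rule does not take, and they were chosen after their values were seen. HAGLR, which starts 117 bases from HOXD1 on the opposite strand, had 4, 8 and 4 counts in Empty and 629, 559 and 469 in LINC00862. Its groups were far apart (log2 fold change 6.74, adjusted p = 7.38e-07, edgeR). HAGLROS had 0 in each Empty library and 176, 132 and 117 in LINC00862, at least 11.2-fold higher (adjusted p = 2.34e-05). The HOXD coding genes beside them had a summed FPKM of 0.0375, 0.0978 and 0 in Empty and 0.312, 0.158 and 0.503 in LINC00862, while HAGLR alone had a mean FPKM of 1.54 ± 0.154 in LINC00862. In HOXB, the gene PRAC2 next to HOXB13 had 0, 0 and 12 counts in Empty and 36, 16 and 33 in LINC00862 without a call (log2 fold change 2.86, adjusted p = 0.0601).

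Summed over the 38 protein-coding members, FPKM was 31.4, 35.4 and 35.7 in Empty and 10.2, 9.15 and 9.94 in LINC00862. Total HOX transcript was thus 3.50 times higher in Empty, without overlap (exact two-sided permutation p = 0.1). By cluster the sums moved in different directions. HOXB had 29.1, 32.5 and 32.7 in Empty and 2.91, 3.12 and 2.72 in LINC00862, 10.8 times higher in Empty. HOXA had 1.00, 1.15 and 0.906 in Empty and 3.52, 3.45 and 3.89 in LINC00862, 3.55 times higher in LINC00862. HOXC had 1.27, 1.70 and 2.05 in Empty and 3.44, 2.42 and 2.83 in LINC00862, 1.73 times higher in LINC00862. In each of these sums the groups did not overlap, and each exact permutation p was 0.1.

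The mix of clusters followed from these sums. HOXB gave 92.6%, 91.7% and 91.7% of the HOX FPKM in the Empty libraries and 28.6%, 34.1% and 27.4% in LINC00862. In LINC00862 HOXA gave a mean of 37.1% and HOXC 29.6%, against 2.99% and 4.86% in Empty. HOXD gave 0.132% in Empty and 3.28% in LINC00862. One cluster therefore made up nearly all HOX transcript in Empty, while 3 clusters shared it in LINC00862.

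**Figure D3:**
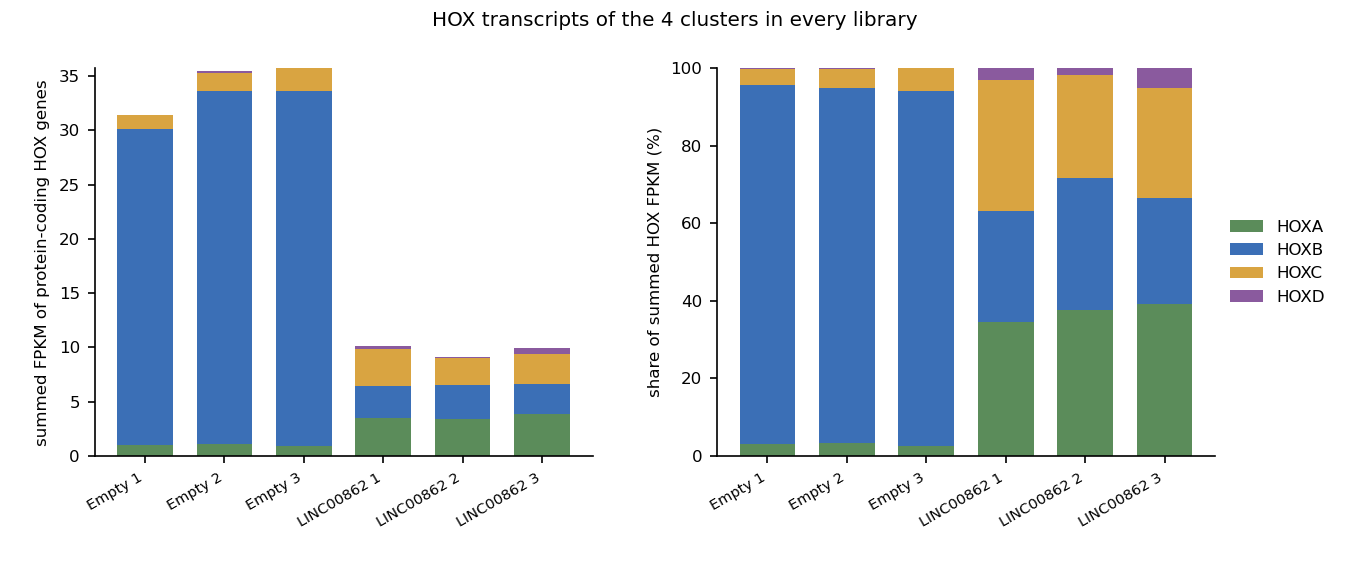
Summed FPKM of the protein-coding HOX genes in each library (left, stacked by cluster) and the share of each cluster in that sum (right, percent). HOXB fills 92.0% of the bar on average in Empty and 30.0% in LINC00862, where the bars are lower by a factor of 3.50.

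The order of single genes changed as well. By mean FPKM the protein-coding members of Empty began with HOXB2, HOXB4, HOXB7, HOXB3, HOXB9 and HOXB6, and those of LINC00862 with HOXA5, HOXB7, HOXC9, HOXB13, HOXC6 and HOXA11. HOXB7 thus stood among the first 3 in both groups. HOXB2 went from rank 1 to rank 20, HOXB4 from 2 to 32, and HOXB13 from 25 to 4. HOXB7 and HOXC9, ranks 2 and 3 in LINC00862, had mean FPKM of 1.19 ± 0.107 and 0.838 ± 0.213, and HOXC9 and HOXB13 (0.791 ± 0.345) did not differ beyond their spread.

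By position, the anterior genes (paralogs 1 to 3) had the largest drop in summed level. Their FPKM was 14.9, 16.7 and 16.0 in Empty and 0.482, 0.313 and 0.598 in LINC00862, 34.2 times higher in Empty. The central genes (paralogs 4 to 8) had 13.4, 15.8 and 15.5 in Empty and 5.40, 5.03 and 5.84 in LINC00862, 2.74 times higher in Empty. The posterior genes (paralogs 9 to 13) had 3.20, 2.94 and 4.21 in Empty and 4.29, 3.81 and 3.50 in LINC00862, which overlapped (exact permutation p = 0.4). Of the 7 anterior genes 1 rose and 3 fell, of the 15 central genes 4 rose and 4 fell, and of the 16 posterior genes 4 rose and 1 fell, with 4, 10 and 8 tested (100%, 80.0% and 62.5% called, against 64.2% of all tested genes). HOXB2 and HOXB3 had mean FPKM of 13.4 and 2.07 within the anterior mean of 15.9 in Empty. Over the anterior and central genes of HOXB, the mean sum was 29.7 in Empty and 1.72 in LINC00862. HOXA3 to HOXA6, of the same zones, went the other way, from 0.167 to 2.65. The drops of the anterior and central sums were thus mainly those of HOXB and not a change shared by position. Differences between the zones were not tested.

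Paralogs of the same number were called in opposite directions in groups 3 to 6, while both tested members of group 11 rose. Of paralog group 4, HOXB4 fell while HOXA4 rose, and HOXC4 and HOXD4 were not tested. In group 5, HOXB5 fell, HOXA5 rose and HOXC5 (2.71) had no call. In group 6, HOXB6 fell while HOXA6 and HOXC6 rose. HOXB9 fell, whereas HOXC9 overlapped between the groups and HOXA9 and HOXD9 were not tested. In group 3, HOXB3 fell, HOXA3 rose and HOXD3 was not tested. In group 11, HOXA11 and HOXC11 both rose and HOXD11 was not tested, and in group 10, HOXC10 rose while HOXA10 (1.20) had no call. Of group 13, HOXB13 rose (5.42), HOXC13 (-1.05) had no call, and HOXA13 and HOXD13 were not tested.

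Several lncRNA members went with coding genes next to them. HOXB-AS1 fell with HOXB2 and HOXB3, HOXA-AS2 and HOXA-AS3 rose with HOXA3 to HOXA6, and HOXA11-AS rose with HOXA11. With HOTAIRM1, these are the 5 tested ones of 12 lncRNA members, 3 that rose and 2 that fell. Of the 50 members, 39 overlap another member, 19 on the same strand and 30 on the opposite strand. Whether the pairs are separate transcripts or reads counted for both cannot be told apart from the deposited values.

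Past the cluster ends, genes of both directions and genes without a call were found. Of the 40 nearest genes beside the clusters (5 on each side with at least 10 counts in sum), 33 were tested, 8 rose and 9 fell (51.5% called against 64.2% of all tested genes, median log2 fold change 0.14). SKAP2, on the anterior side of HOXA, had 1321, 796 and 846 counts in Empty and 1252, 1074 and 789 in LINC00862, which overlapped. On the anterior side of HOXB, SKAP1 at 110619 bases from HOXB2 was not called (log2 fold change 0.64, adjusted p = 0.475, edgeR). On the anterior side of HOXC, the lncRNA LINC02381 had 4, 4 and 8 counts in Empty and 217, 216 and 224 in LINC00862 (log2 fold change 5.43, adjusted p = 6.99e-06, edgeR). Closer genes on that side were also called as higher. These were FLJ12825 at 2927 bases (fragment ratio 12.9, 95% counting interval 3.23 to 112) and FAM242C at 29805 bases (at least 1.76-fold). SMUG1 on the same side was not called (log2 fold change 0.50). MTX2, 78488 bases beyond HOXD1, rose from 1274, 1509 and 1419 to 5899, 5176 and 5833 counts (log2 fold change 2.10, adjusted p = 7.70e-06, edgeR), while LNPK on the other side of HOXD had a log2 fold change of -0.47.

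**Figure D4:**
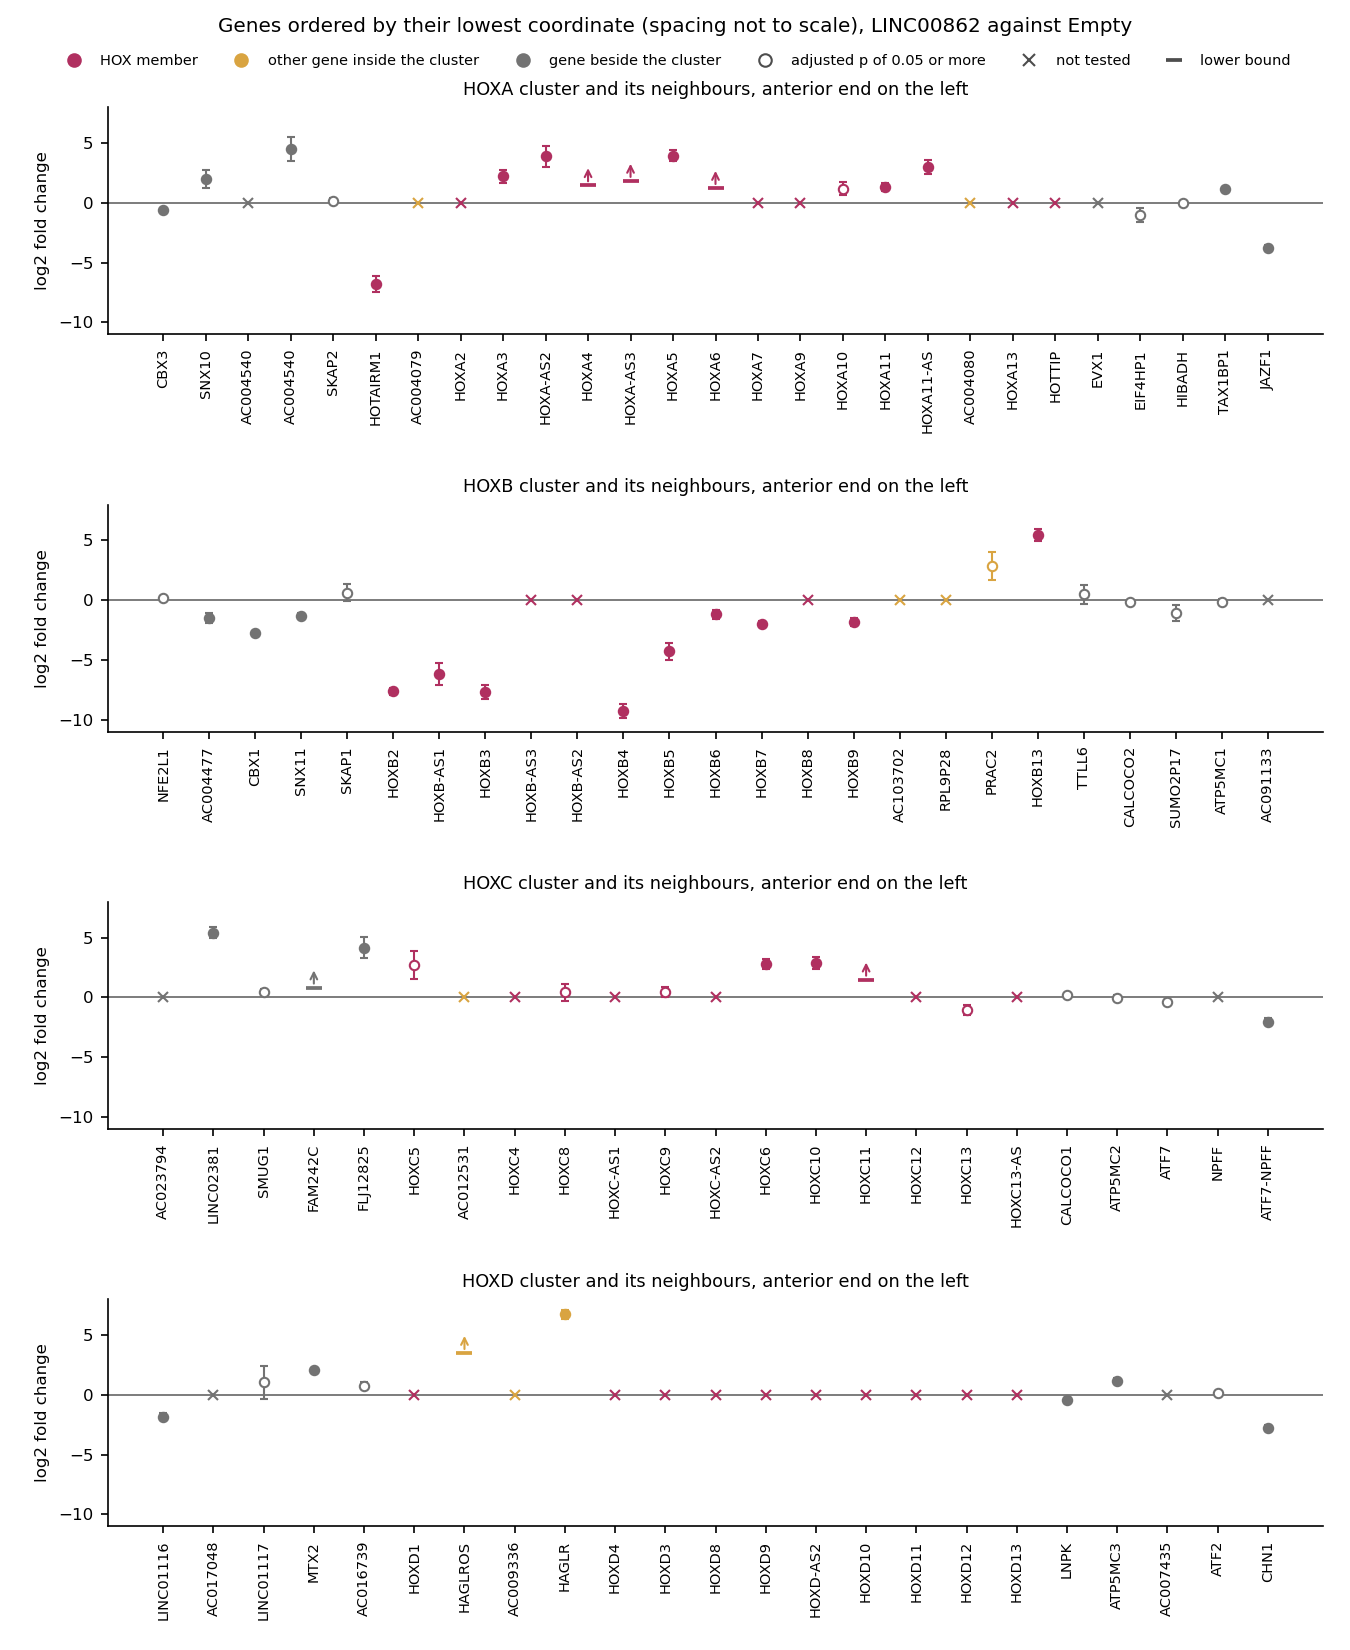
Log2 fold change (with standard error) of HOX members, other genes inside the clusters and the 5 nearest genes on each side, ordered by lowest coordinate with the anterior end on the left and spacing not to scale. The low values of HOXB run from HOXB2 to HOXB9, with SKAP1 before HOXB2 at 0.64 and HOXB13 at 5.42.

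HOX proteins bind DNA with partners of the PBX, MEIS and PKNOX families. Of 9 such genes, 8 were tested, 1 rose and 5 fell (75.0% called against 64.2% of all tested genes, median log2 fold change -1.08 against 0.11). PBX3 (-3.66, adjusted p = 2.23e-06, edgeR), MEIS3 (-3.65) and PKNOX1 (-1.29) fell. PBX4 had 229, 251 and 222 counts in Empty and 0 in each LINC00862 library, at least 20.4-fold lower. Of 8 relatives outside the clusters (the CDX, GSX, PDX1 and EVX genes), 4 are in the table and 1 was tested. That gene, GSX2, had 11, 11 and 18 counts in Empty and 0 in each LINC00862 library and was called as lower, whereas EVX1, just past the posterior end of HOXA, had 0 in Empty and 17, 8 and 4 in LINC00862 and was not tested.

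Retinoic acid is a known inducer of HOX genes in development. Of 18 genes of its synthesis, breakdown, binding and receptors, 17 are in the table and 16 were tested, of which 9 rose and 4 fell (81.25% called against 64.2%, median log2 fold change 1.20 against 0.11). ALDH1A1, which makes retinoic acid, rose (5.57, adjusted p = 3.26e-06, edgeR), as did RDH10 (3.95) of the same route, DHRS3 (4.93), which turns retinal back, and CYP26B1 (3.56), which degrades the acid. ALDH1A3, which also makes retinoic acid, fell (-5.65, adjusted p = 7.21e-07, edgeR), with a mean FPKM of 4.45 in Empty and 0.0766 in LINC00862. The receptors RARA (-1.07), RARG (-1.97) and RXRA (-1.37) fell, and RARB (1.48) and RXRG (5.56) rose. RXRB was called (0.48) although its FPKM overlapped between the groups (exact permutation p = 0.4), and library size alone, both FPKM scales, the replicate block and 3 of the left-out libraries ended that call. The RARB call was lost without LINC00862 library 1 or 2. Among the Polycomb genes, all 23 were tested, 3 rose and 13 fell (69.6% called against 64.2% of all tested genes, median -0.49), and with upper quartile scaling 6 rose and 7 fell. CBX8 (2.27, adjusted p = 4.58e-06, edgeR) rose, and PHF19 (-2.50) and RBBP7 (-1.44) fell. Of 10 genes in the trithorax list, 2 rose and 5 fell (70.0% called, median -0.72). Among them KDM6B (1.51) rose, and MEN1 (-0.99) and WDR5 (-0.96) fell. ASXL1 (-1.69) also fell and is counted in this list, although it is not a trithorax gene in the strict sense. Whether any of these genes acts on the HOX clusters here was not tested.

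**Figure D5:**
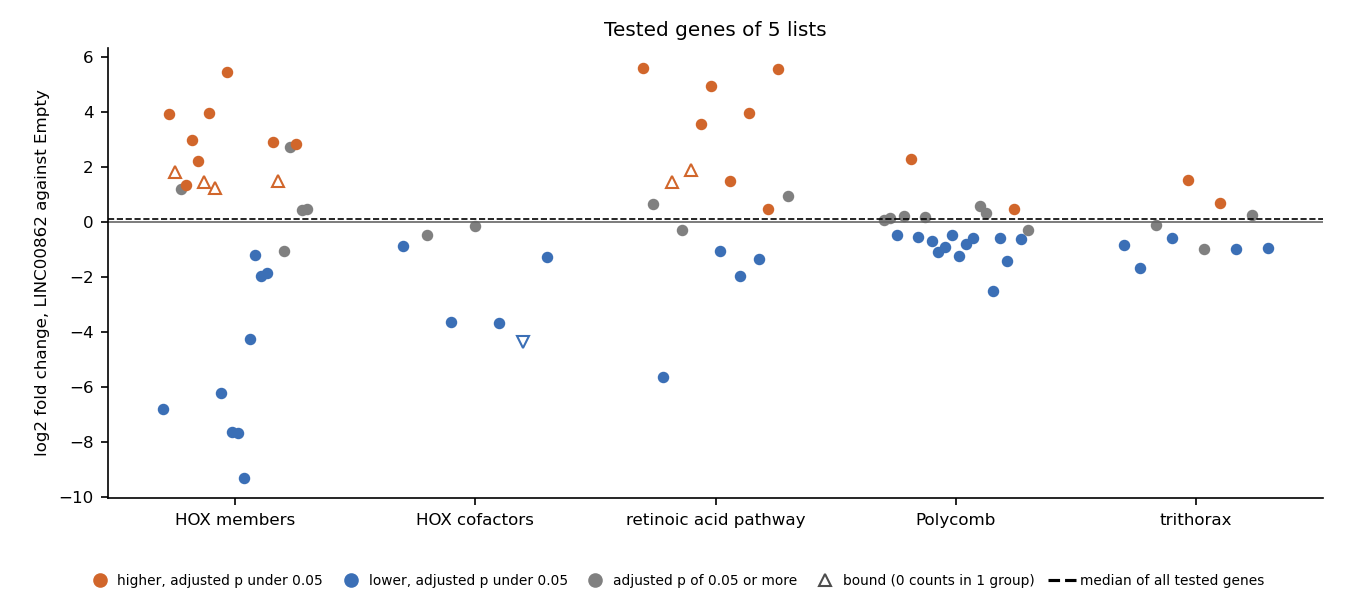
Log2 fold change of tested genes in 5 lists (HOX members, cofactors, retinoic acid pathway, Polycomb and trithorax), with open triangles for bounds where 1 group is at 0 and a dashed line at the median of all tested genes, 0.11. The HOX members spread from -9.28 to 5.42 without a common direction.

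Markers of cell identity differed between the groups along with the HOX genes. The counts of calls below stand against 34.4% of all tested genes that rose and 29.8% that fell, 64.2% together. Of 10 hepatocyte or hepatoma markers, 9 were tested, 7 rose and 2 fell (100% called), and their summed FPKM was 3.06, 3.04 and 3.56 in Empty and 608, 538 and 534 in LINC00862. TTR was at 0 in each Empty library, and AFP was at 0 in each LINC00862 library. FGB made up most of that sum, with a mean FPKM of 1.75 in Empty and 550.4 in LINC00862, while ALB had 0.00780 in Empty and 1.51 in LINC00862. Of 5 epithelial markers 4 rose and 0 fell (80.0%), with sums of 194, 235 and 287 in Empty and 500.2, 463 and 437 in LINC00862 (KRT18 most abundant). By FPKM, 4 of these markers were higher in each LINC00862 library and 1 was higher in each Empty library, without overlap. Of 5 mesenchymal markers all 5 fell (100%), with sums of 563, 624 and 613 in Empty and 5.60, 5.66 and 5.76 in LINC00862 (VIM most abundant).

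Fibroblast markers (2 of 5 rose, 1 fell, 60.0% called) summed to 7.33 to 8.52 in Empty and 11.7 to 15.7 in LINC00862. COL1A1 rose from a mean FPKM of 2.43 to 10.6 and LUM from 1.06 to 1.86, and PDGFRB fell from 3.63 to 0.0538. PDGFRB was most abundant in Empty and COL1A1 in LINC00862. Endothelial markers (1 of 4 rose, 25.0%) summed to 1.74, 1.17 and 1.38 in Empty against 5.47, 5.89 and 4.44. CDH5 rose from a mean FPKM of 0.403 to 4.47, while PECAM1, VWF and KDR overlapped between the groups. VWF (0.477) was most abundant in Empty and CDH5 in LINC00862. Blood markers (1 of 3 tested rose, 33.3%) summed to 2.15, 2.39 and 2.69 against 6.03, 7.06 and 5.22, with CD14 most abundant. Intestinal markers (1 of 5 tested, 0 called) summed to 0.0270, 0.226 and 0.123 against 0.391, 0.207 and 0.233, led by LGALS4, with CDX2 and GUCY2C at 0 in Empty. Kidney markers (2 of 4 in the table, 1 tested, 0 called) summed to 0.122, 0.0808 and 0.0962 against 0.0581, 0.110 and 0.0921, led by PAX8, with LHX1 at 0 in Empty. The part of these differences in the HOX values was not tested. Whether the HOX clusters responded to LINC00862 or the cells of the groups differ in where they come from cannot be told apart here.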

How the data were processed

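The authors deposited 1 table with an estimated count and an FPKM per gene and library, with gene coordinates on hg38 per the labels. The submitters' processing notes name cutadapt 1.9, HISAT2 2.0.4, StringTie 1.3.4d, UMI-tools, DESeq2, edgeR and hg38 without roles. The annotation release, the use of the strand in counting and the collapse of molecular identifiers are not given in the sources used here. The values were planned to be tested as read counts. The deposited estimated counts are whole numbers and were entered as they are, although low values pile up at multiples of 4.

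Groups followed the labels, 3 libraries each. Counts were analysed in R 4.3.3 with edgeR 4.0.16 (filterByExpr, TMM, quasi-likelihood test, Benjamini-Hochberg adjustment, false discovery rate 0.05). Standard errors came from the test statistic. An exact permutation test, two-sided and with a smallest p of 0.1, compared single sums. Where a group had 0 counts, a lower bound was computed against a floor of 12 counts per library. Where it held 1 to 3 fragments, taking 4 counts as 1 fragment, the ratio of fragments is given with an exact 95% interval. Alternatives were DESeq2 1.42.0, upper quartile scaling, library size only, each gene with at least 1 count, a replicate block, a test against a fold change of 2, limma 3.58.1 on log2(FPKM + 1) and log2(FPKM + 0.1), each library left out, and, added after seeing the data, counts divided by 4. Members are described in full by a rule: in each cluster the 2 protein-coding members and the lncRNA with the highest mean FPKM, up to 5 called members with the largest rise and 5 with the largest fall among those whose mean FPKM reached 0.1 in each group (3 of each qualified), and up to 5 with 3 counts or fewer in each library of the other group. Other lists name up to 4 called genes, and the retinoic acid list also ALDH1A3 and the called receptors. GENCODE 29 holds all 50 member identifiers, 19 with the same coordinates. Promoter sequences are those of RefSeq. Some genes enter the totals and are not reported singly here. The members and lists were chosen with earlier results of these data known. Python 3.11.15 with pandas 2.3.3 and matplotlib 3.10.9 produced the tables and plots.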

Additional observations from a re-analysis of the deposited data

How the results depend on the processing

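The 22 called HOX members kept their sign and their call with DESeq2 (13722 genes called), upper quartile scaling, library size only, every gene with at least 1 count and limma on both FPKM scales. A replicate block kept 22 of 22 calls as well (12098 genes called), but no library was most like the library of its own number (correlations -0.048, -0.027 and -0.006). Over all alternatives the fold changes of HOX members stayed on their side of the threshold in 379 cases, lost a call in 8, gained one in 10 and turned sign in 1. The cause was not tested except where fewer genes or libraries entered the test.

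With counts divided by 4, added after seeing the data, 17 of the 22 called members were tested and 17 kept their call, with 8 in place of 12 rises. Rises were 5 in HOXA (main count 8), 0 among anterior (1) and 2 among central genes (4), falls were 1 in HOXA (2), 1 in HOXC (0) and 2 among posterior genes (1), 0 relatives fell (1), and HOXC13 was called (-0.99). With every gene of at least 1 count, 1 HOXD member, 2 anterior genes and 1 relative rose. Library size only gave 1 fall in HOXC and 2 among posterior genes, since HOXC13 was called (-1.20). The log2(FPKM + 0.1) scale gave the same counts of 1 and 2, with HOXC13 at -0.93 and HOXC5 at 1.21 called, and log2(FPKM + 1) gave 1 and 2 with -0.33 and 0.21. Upper quartile scaling called HOXA10 (1.41) and gave 6 rises and 7 falls among Polycomb genes. Against a fold change of 2, HOXA11 (1.34) and HOXB6 (-1.19) lost their call, falls were 1 in HOXA, 1 among trithorax and 2 among Polycomb genes, 1 trithorax gene rose, and 5 genes beside the clusters rose and 5 fell.

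With 1 library left out at a time, HOXA falls ranged from 1 to 2, HOXC falls from 0 to 1, HOXD rises from 0 to 1, anterior rises from 1 to 2 and posterior falls from 1 to 2. Log2 fold changes ranged from 0.93 to 1.59 for HOXA10 (called without Empty library 3), -1.33 to -0.86 for HOXB6, -1.25 to -0.68 for HOXC13, 2.11 to 7.74 for HOXC5 and -0.03 to 1.29 for HOXC8, which turned sign without Empty library 3 (-0.03). The 7.74 of HOXC5 came from a fit with no Empty counts and is not a measured fold. Depth limits the report: 16 of 50 members stayed under 12 counts in every library and were not tested.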
